A study of Mus musculus with 9 samples.

Results

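The 34 genes described here encode the glycolytic pathway and part of the transcriptional response to low oxygen. They were matched by gene symbol to the Ensembl identifiers of the count tables. All 34 were found among 37990 genes listed, and all 34 were among the 14465 genes that held enough reads to be tested. RNA was measured in E14 mouse embryonic stem cells, grown in serum with leukaemia inhibitory factor and carrying a lentiviral short hairpin RNA (pLKO.1) after puromycin selection. The groups were a Fam60a knockdown, a Sin3a knockdown and a control titled T2SC, with 3 libraries each that the labels call biological replicates. The T2SC titles name neither target, and these libraries were taken as the non-targeting scrambled control by elimination. All groups therefore share the vector, the transduction and the selection, and the labels tell apart no separate hairpins within a group. For Fam60a the file headers number the alignments differently from the titles, and whether both stand for the same hairpin is not settled. The Sin3a protein holds together a corepressor complex that carries histone deacetylases, and Fam60a (Sinhcaf in current annotation) is one of the complex's subunits.

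Glycolysis converts glucose to pyruvate, and lactate dehydrogenase turns pyruvate into lactate, which leaves the cell through monocarboxylate transporters. The hypoxia-inducible factors HIF-1α (Hif1a) and HIF-2α (Epas1) are hydroxylated by the EGLN oxygen sensors when oxygen is present and are then degraded. When oxygen is low they escape this, bind hypoxia response elements and raise most glycolytic genes together with genes such as Vegfa, Bnip3 and Car9. Mouse embryonic stem cells are known for strong glycolysis, and many of these steps have several isozymes with different tissue patterns.

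In all, 3 members passed the test of the Sin3a knockdown against the control, namely Aldoc, Slc16a3 and Ddit4, so the sequence upstream of their start sites is shown first. The 250 bases before the RefSeq start site are printed 5′ to 3′ on the strand of the gene (build GRCm38.p6). Capitals mark the 5-base core of a hypoxia response element, ACGTG or GCGTG, searched on both strands. The core ACGTG also lies within the E-box CACGTG, which is bound by other factors.
Aldoc, chr11:78322823-78323072, plus strand: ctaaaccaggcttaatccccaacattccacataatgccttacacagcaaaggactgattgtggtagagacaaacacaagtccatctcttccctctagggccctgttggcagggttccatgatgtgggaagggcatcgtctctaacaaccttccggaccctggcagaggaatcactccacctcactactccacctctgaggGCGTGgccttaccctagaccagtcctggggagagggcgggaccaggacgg
Slc16a3, chr11:120948817-120949066, plus strand: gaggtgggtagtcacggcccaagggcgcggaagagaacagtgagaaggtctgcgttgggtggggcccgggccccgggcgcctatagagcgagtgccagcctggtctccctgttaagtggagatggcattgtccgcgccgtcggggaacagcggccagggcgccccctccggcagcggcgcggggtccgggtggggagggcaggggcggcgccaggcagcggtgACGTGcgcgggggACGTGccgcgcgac
Ddit4, chr10:59951771-59952020, minus strand: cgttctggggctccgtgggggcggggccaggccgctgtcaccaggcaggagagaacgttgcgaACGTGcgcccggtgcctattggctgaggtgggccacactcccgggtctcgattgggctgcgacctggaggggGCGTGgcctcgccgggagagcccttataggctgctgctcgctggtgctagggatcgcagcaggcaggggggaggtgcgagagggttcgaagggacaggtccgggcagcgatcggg

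RefSeq gives Aldoc 2 start sites, of which the first is shown, and the window of the other has 1 core. The Aldoc stretch held 1 core and the Slc16a3 and Ddit4 stretches held 2 each. The core of Aldoc began 50 bases before the start site, those of Slc16a3 27 and 14 bases before it, and those of Ddit4 187 and 115 bases before it. Windows of 300 bases (250 before and 50 after a start site) were given for 32 of the members, 48 windows in all. Over 300 bases the first Aldoc window held 3 cores, as cores also began 11 and 27 bases after the start site. A core was found in 37 of the members' 48 windows (77.1%), against 43.8% of all 32851 windows. At least 3 cores were found in 27.1% of the members' windows and 8.93% of all windows, and the E-box in 12.5% and 7.15%. Both cores contain the dinucleotide CG, of which the members' windows held a median of 20.5 and all windows a median of 7. The part of this difference in the motif shares was not tested. In all, 29 of the 32 genes had a core in at least 1 window, so the 3 called members shared this feature with most of the list. A match is a description of the sequence and does not show binding.

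Each hairpin's target was lower in its own knockdown. Fam60a (Sinhcaf) measured 13.5 ± 0.47 CPM (a read count adjusted for library size) in the control and 5.73 ± 0.75 in its knockdown (SD, n = 3, edgeR adjusted p = 0.028). Sin3a measured 287 ± 21.9 CPM in the control and 126 ± 13.4 in its knockdown (SD, n = 3, edgeR adjusted p = 0.00149). Its level was also lower in each Fam60a knockdown library (227, 216 and 207 CPM) than in any control library (311, 281 and 268). That log2 fold change was -0.40 ± 0.11 (SE, adjusted p = 0.0964), and -0.39 without Sin3a knockdown replicate 3 (adjusted p = 0.00466). Libraries held 2607872 to 7674887 reads, of which the members took 0.416 to 0.492%, and 3 reads corresponded to 0.385 to 1.22 CPM. The shallowest library, Sin3a knockdown replicate 3, stood apart from its group, so results that rest on it are given with and without it. The 10 embryonic stem cell markers were all measured. They summed to 1801, 1647 and 1634 CPM in the control, 1568, 1386 and 1490 with Fam60a knockdown and 1584, 1729 and 1638 with Sin3a knockdown. The Fam60a knockdown libraries lay below every control library. With all libraries 0 markers passed there, beside 2.92% of all genes. Fgf4 fell in the Sin3a knockdown (log2 -0.388 ± 0.096, SE, edgeR adjusted p = 0.0335), beside 10.2%. Without Sin3a knockdown replicate 3, 2 fell with Fam60a and 1 with Sin3a knockdown, beside 16.9% and 24.5%.

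The departure of that library ran through the members along their base composition. Its log2 level minus the mean of the other Sin3a knockdown libraries lay beyond ±0.5 for 21 of the 34 members, against 1 member for replicate 3 of each other group. It ranged from -1.17 for Pdk1 to 1.28 for Ddit4. The 7 members with a transcript GC content under 48% had a median of -0.87, and the 8 members above 55% one of 0.83. Across the 34 members, which share this library and are not replicates, the deviation and GC content had a Pearson r of 0.60 and a Spearman rho of 0.57. In the control the same values were 0.034 and 0.18, and in the Fam60a knockdown -0.010 and 0.12.

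**Figure D1:**
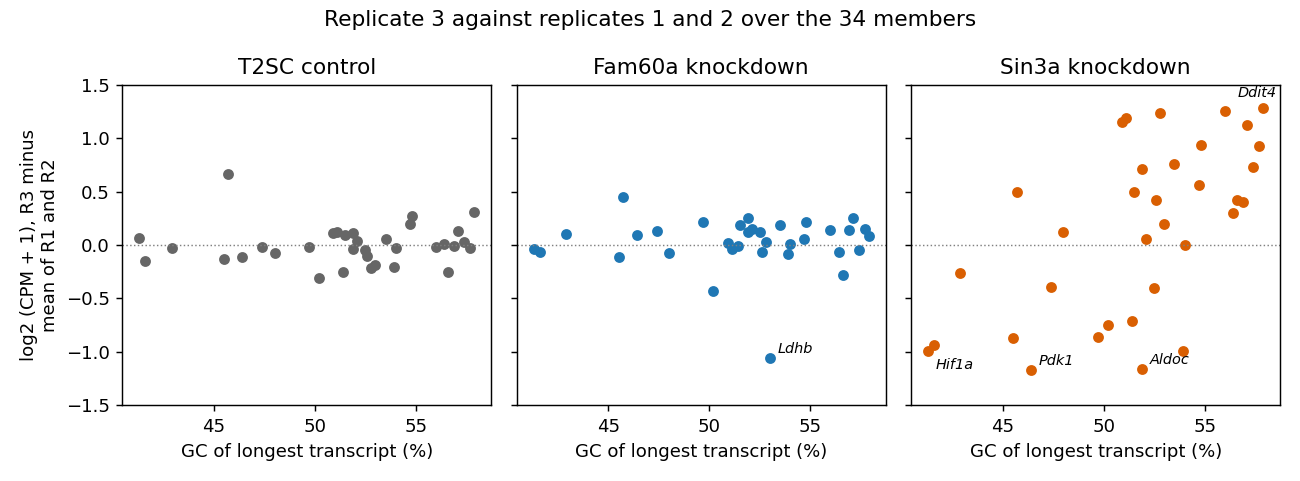
Log2 level (CPM + 1) of replicate 3 minus the mean of replicates 1 and 2, on the y axis, against the GC content of the longest transcript in percent, on the x axis, with 1 point per member and 1 panel per group. Members with GC under 48% lie mostly below 0 and those above 55% above 0 in the Sin3a knockdown, with a Pearson r of 0.60, and 21 of 34 points there lie beyond ±0.5.

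In the Fam60a knockdown, 0 of the 34 members passed the test (edgeR, Benjamini-Hochberg adjusted p under 0.05 over all genes), against 2.92% of all genes tested. At an unadjusted p under 0.05 there were 4 members, beside 15.7% of all genes. DESeq2 called 2 (Eno2 and Ldhb), beside 8.18% of all genes. The median log2 fold change of the members was -0.11, beside -0.02 over all genes, and single values ran from -1.08 (Ldhb) to 1.00 (Eno2). In the Sin3a knockdown 3 members passed (8.82%), which was near the 10.2% of all genes tested. Aldoc and Slc16a3 fell and Ddit4 rose, and the median was 0.04, beside -0.01 over all genes. Between the knockdowns 0 members passed, beside 3.06% of all genes. There 7 members had an unadjusted p under 0.05, beside 18.1% of all genes, and DESeq2 called 1 (Aldoc), beside 9.23%. Both knockdowns were compared with the same 3 control libraries. In these bulk samples, fewer cells of a kind and less RNA per cell cannot be told apart.

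The intervals reflect the spread between libraries and do not cover the removal of duplicate reads or sequence shared between genes. For 25 members with Fam60a knockdown and 22 with Sin3a knockdown, the 95% interval of the fold change stayed within 2-fold of the control in either direction. Without Sin3a knockdown replicate 3 this held for 31 and 27 of the 34. In that fit 6 members passed in the Fam60a knockdown, a share of 17.6% beside 16.9% of all genes. Pfkm, Eno2, Egln1 and Ddit4 rose, and Ldhb and Slc16a1 fell. In the Sin3a knockdown 6 members passed as well, beside 24.5% of all genes. Aldoc, Slc16a3 and Hk1 fell, and Pdk1, Epas1 and Ddit4 rose. Between the knockdowns 6 passed, beside 14.7% of all genes. Pfkm, Eno2, Aldoc and Slc16a3 were lower in the Sin3a than in the Fam60a knockdown, and Pdk1 and Epas1 were higher.

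With the replicate number as a block, 2 members rose in the Fam60a knockdown (Eno2 and P4ha1), beside 6.13% of all genes called. Ddit4 and P4ha1 rose and Aldoc fell in the blocked Sin3a knockdown comparison, beside 15.0% of all genes. Between the knockdowns 0 members were called in the blocked fit, beside 4.65% of all genes. There 8 members had an unadjusted p under 0.05, beside 22% of all genes. Members that passed in one of these fits and not with all 9 libraries and no block (Eno2, Ldhb, P4ha1, Pfkm, Egln1, Pdk1, Epas1, Hk1 and Slc16a1) are described below. Of these, those outside the pathway's regulators and its 6 highest members were chosen after their values were seen.

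**Figure D2:**
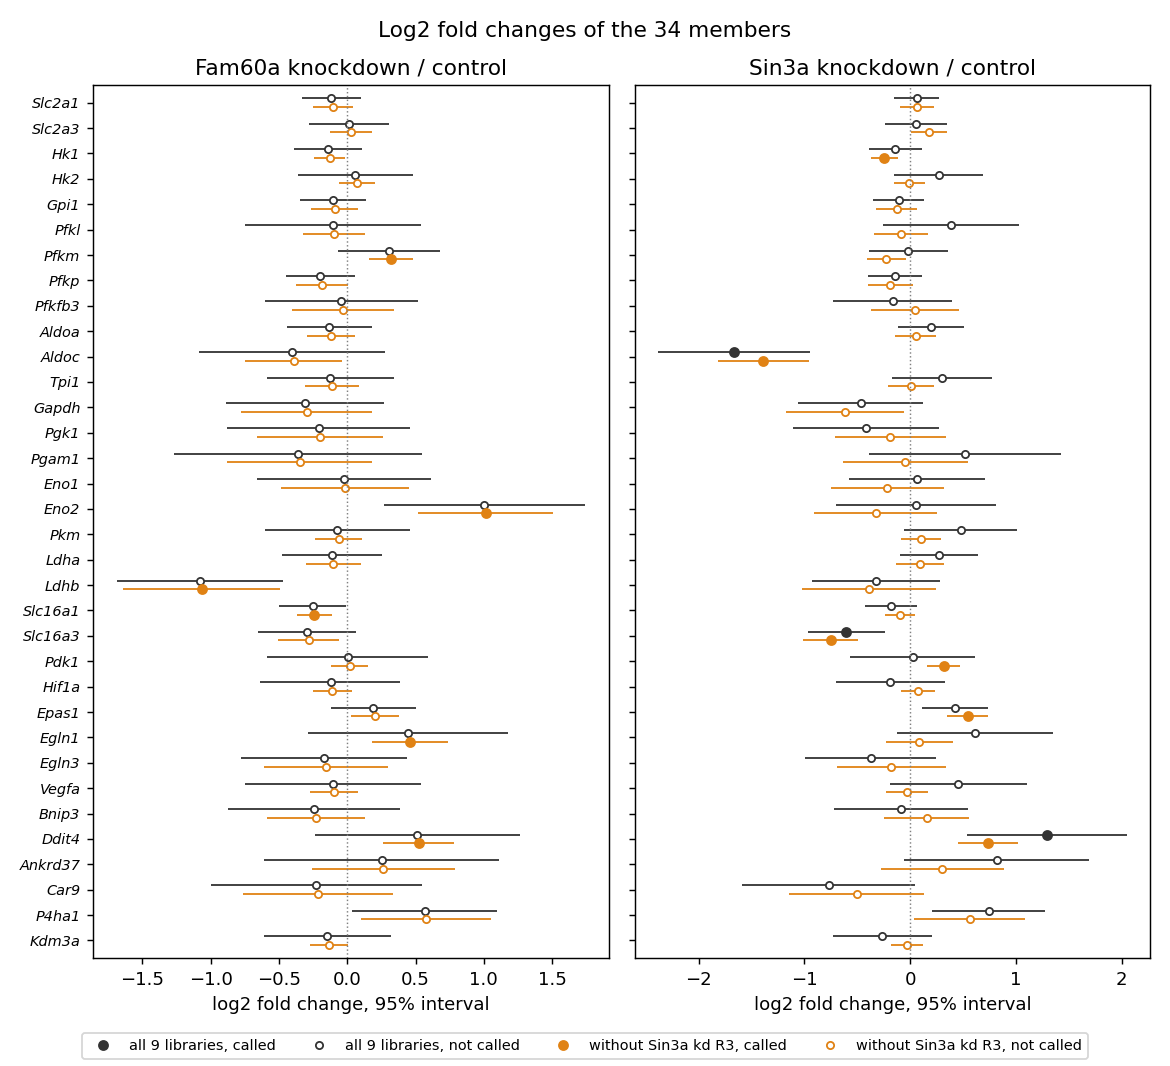
Log2 fold change against the control with its 95% interval (x axis) for each of the 34 members (y axis), for the Fam60a knockdown at left and the Sin3a knockdown at right. Filled points passed the test at an adjusted p under 0.05. Black comes from all 9 libraries and orange from the fit without Sin3a knockdown replicate 3. With all libraries the filled points are Aldoc, Slc16a3 and Ddit4 in the Sin3a knockdown, and without that replicate 6 members are filled on each side.

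Glucose enters through transporters and is phosphorylated by hexokinase. Per exon length (RPKM, reads per kilobase scaled to library size), Slc2a1 led the control at 73.3 ± 0.83, followed by Aldoa at 63.4 ± 1.32, Hk2 at 59.2 ± 1.88 and Slc2a3 at 57.3 ± 1.66 (SD, n = 3). Exon length here joins all annotated exons of a gene and can far exceed its longest transcript. The lengths were 2911 against 1549 bases for Aldoa and 3506 against 3260 for Slc2a1. The order of members therefore depends on the length used. Slc2a1 and Slc2a3 encode the glucose transporters GLUT1 and GLUT3. Values by library are given in the order of replicates 1, 2 and 3 throughout. Slc2a1 measured 260, 257 and 254 CPM in the control, 238, 235 and 238 with Fam60a knockdown and 245, 292 and 267 with Sin3a knockdown. The Fam60a libraries lay below all control libraries by a small margin, and the log2 fold change of -0.12 ± 0.095 (SE) did not pass (edgeR adjusted p = 0.706). Slc2a3 measured 406, 429 and 411 CPM in the control, 402, 412 and 445 with Fam60a knockdown and 433, 506 and 357 with Sin3a knockdown. Its groups overlapped. The transporters' log2 intervals against the control reached no farther than -0.33 to 0.35 in either knockdown.

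Hk2 encodes the hexokinase that is typical of highly glycolytic cells. It measured 367, 347 and 347 CPM in the control, 365, 350 and 389 with Fam60a knockdown and 337, 365 and 577 with Sin3a knockdown. The value of 577 came from replicate 3, and the log2 fold change in the Sin3a knockdown was 0.27 with that library and -0.01 without it (edgeR adjusted p = 0.401 and 0.942). Hk1, the more widely expressed hexokinase, measured 160, 157 and 160 CPM in the control, 145, 148 and 140 with Fam60a knockdown and 132, 137 and 165 with Sin3a knockdown. Replicates 1 and 2 of the Sin3a knockdown lay below every control library and replicate 3 lay above. Without replicate 3, Hk1 fell by 0.24 on the log2 scale (edgeR adjusted p = 0.0156), against an adjusted p of 0.459 with it. Hk1 made up 24.0 ± 0.47% of hexokinase reads per length in the control, 21.6 ± 1.35% with Fam60a knockdown and 19.6 ± 2.58% with Sin3a knockdown (SD, n = 3). The size of this share depends on the length used. Joined exons and longest transcript have 8532 and 4278 bases for Hk1, and 5969 and 5513 for Hk2.

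Phosphofructokinase catalyses the committed step of glycolysis and is built from liver (Pfkl), muscle (Pfkm) and platelet (Pfkp) type subunits. Pfkl measured 274, 233 and 277 CPM in the control, 245, 211 and 272 with Fam60a knockdown and 245, 245 and 537 with Sin3a knockdown. Its libraries overlapped between groups apart from that last replicate, and it passed no test. Pfkm measured 99.9, 98.5 and 114 CPM in the control, 126, 128 and 132 with Fam60a knockdown and 87.5, 90.2 and 132 with Sin3a knockdown. Every Fam60a knockdown library was above every control library. The log2 fold change was 0.31 ± 0.16 (SE, edgeR adjusted p = 0.442), and 0.32 ± 0.072 without Sin3a knockdown replicate 3 (adjusted p = 0.0175). The muscle type took 34.4 ± 1.33% of phosphofructokinase reads per length in the control, 41.6 ± 1.43% with Fam60a knockdown and 31.3 ± 2.59% with Sin3a knockdown (SD, n = 3). These shares also depend on the length used. Joined exons and longest transcript have 6675 and 3730 bases for Pfkl, 3340 and 2879 for Pfkm, and 13401 and 8681 for Pfkp. Pfkp and Pfkfb3, which makes the activator fructose 2,6-bisphosphate, as well as Gpi1, the isomerase before this step, passed no test in any of the 3 fits.

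Aldolase splits the 6-carbon sugar, and the largest log2 fold change of the list with all libraries was in one of its isozymes. Aldoc (ENSMUSG00000017390), aldolase C, which is best known from brain, measured 41.4, 30.4 and 38.4 CPM in the control. It measured 29.2, 23.0 and 31.1 CPM with Fam60a knockdown and 13.9, 14.1 and 5.69 with Sin3a knockdown. Every Sin3a knockdown library lay below every other library, while the Fam60a knockdown and the control overlapped. Aldoc fell by 1.67 ± 0.32 on the log2 scale in the Sin3a knockdown (SE, edgeR adjusted p = 0.0137). Without replicate 3 the log2 value was -1.39 ± 0.19 (adjusted p = 0.00157). Its log2 value under Fam60a knockdown was -0.40 ± 0.30 (adjusted p = 0.654). The difference between the knockdowns was -1.26 ± 0.32 (adjusted p = 0.0724) and passed without Sin3a knockdown replicate 3 (-0.99, adjusted p = 0.011). The call against the control ended with only the 6 libraries compared (adjusted p = 0.0504) and without T2SC control replicate 1 (0.0586).

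Aldoa, the main aldolase, did not show this fall. It measured 188, 181 and 184 CPM in the control, 169, 157 and 180 with Fam60a knockdown and 174, 208 and 252 with Sin3a knockdown. Its log2 fold change in the Sin3a knockdown was 0.20 ± 0.14 (SE, edgeR adjusted p = 0.409). Aldoc made up 16.4, 13.0 and 15.7% of aldolase reads per length in the control, 13.3, 11.6 and 13.4% with Fam60a knockdown and 6.63, 5.70 and 1.97% with Sin3a knockdown. The share in the Sin3a knockdown was thus lower in each library than in any other library. Aldolase C was the minor form throughout.

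**Figure D3:**
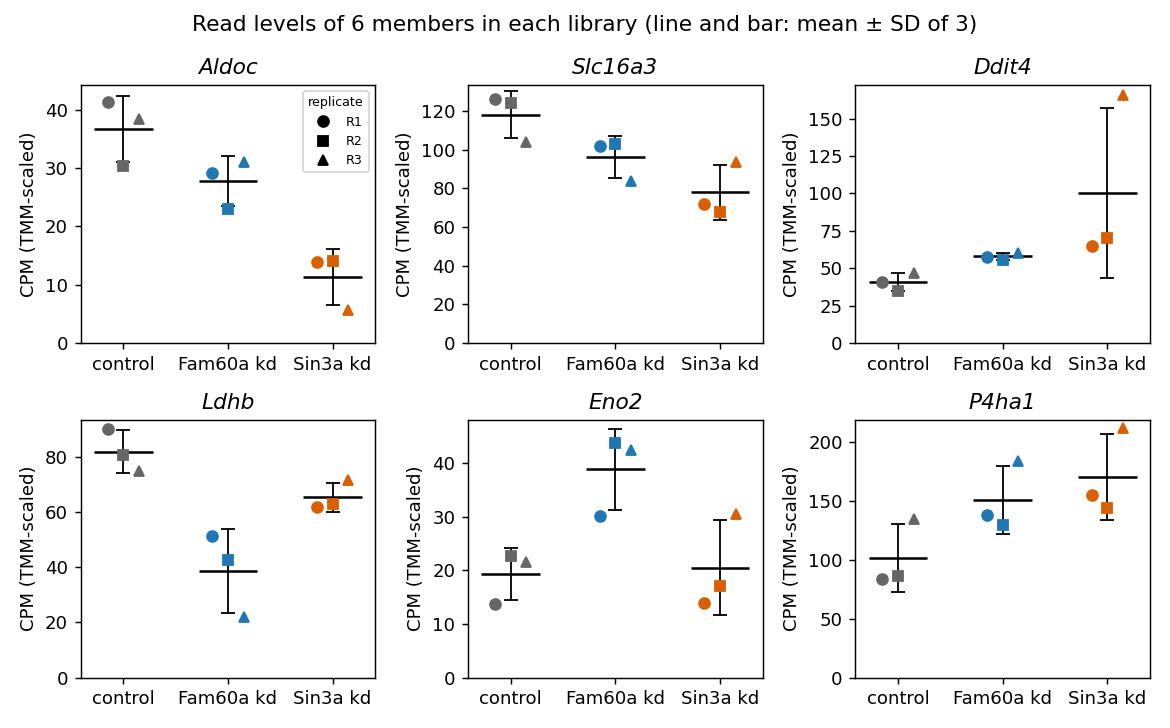
Level in CPM, scaled to library size (y axis from 0), of 6 members in each library, by group (x axis); symbols mark the replicate number, lines the mean and bars the SD of 3 libraries. Aldoc in the Sin3a knockdown lies at 5.69 to 14.1 CPM, below all other libraries, Ddit4 rises from at most 46.6 CPM in the control to at least 64.8 in the Sin3a knockdown, and Ldhb is lowest in the Fam60a knockdown at 22.0 to 51.4 CPM.

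The later part of the pathway, from triose phosphate to pyruvate, has 7 members (Tpi1, Gapdh, Pgk1, Pgam1, Eno1, Eno2 and Pkm). With all libraries 0 of them passed with Fam60a or Sin3a knockdown, beside 2.92% and 10.2% of all genes. Eno2, the enolase best known from neurons, measured 13.7, 22.7 and 21.6 CPM in the control, 30.2, 43.8 and 42.5 with Fam60a knockdown and 13.9, 17.1 and 30.5 with Sin3a knockdown. All Fam60a knockdown libraries were above all control libraries, and the Sin3a knockdown overlapped both. The log2 fold change in the Fam60a knockdown was 1.00 ± 0.33 (SE, edgeR adjusted p = 0.155). It passed with the replicate block (1.02 ± 0.21, adjusted p = 0.0427) and without Sin3a knockdown replicate 3 (1.01 ± 0.22, adjusted p = 0.0148). The size of the change was thus alike in the 3 fits and its error was not. Under Sin3a knockdown Eno2 had a log2 fold change of 0.05 ± 0.33 (adjusted p = 0.937).

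Pkm, the pyruvate kinase of most tissues, measured 161 to 169 CPM in the control, 142 to 166 with Fam60a knockdown and 164, 188 and 335 with Sin3a knockdown, the last in replicate 3. Tpi1, triose phosphate isomerase, stood at 104 ± 6.79, 95.8 ± 9.25 and 129 ± 42.3 CPM in the control, Fam60a knockdown and Sin3a knockdown (SD, n = 3). Gapdh, often used as a reference gene, was measured at 30.2 ± 6.69, 24.3 ± 5.0 and 22.0 ± 5.05 CPM. These levels are low for enzymes known as abundant, and so were Pgk1 (3.42 ± 0.11 RPKM in the control), Pgam1 (2.22 ± 0.24) and Eno1 (6.86 ± 1.70). The RPKM of Eno1 also depends on the length used, as its joined exons hold 5379 bases and its longest transcript 2027. Of all 50-base windows of the longest transcript, the read length used, 72.2% of Eno1, 68.0% of Pgk1, 41.5% of Pgam1 and 27.8% of Gapdh also occurred in another annotated gene. Gapdh shared windows with 208 pseudogenes, Eno1 with 8, Pgk1 with 5 and Pgam1 with 4. Ldha shared windows with 14 pseudogenes, Pkm with 7 and Aldoa with 5, at 34.3, 32.7 and 63.4 RPKM in the control. The 7 members with at least 25% shared windows had a median of 7.30 RPKM, and the other 27 a median of 26.7. Among the 7, Ldhb (27.0% shared, 52.2 RPKM) and Pkm (34.4%, 32.7 RPKM) lay above that second median. How reads with several matches were counted is not given in the sources used here, so the part of shared sequence in these levels was not tested, and their values are uncertain.

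**Figure D4:**
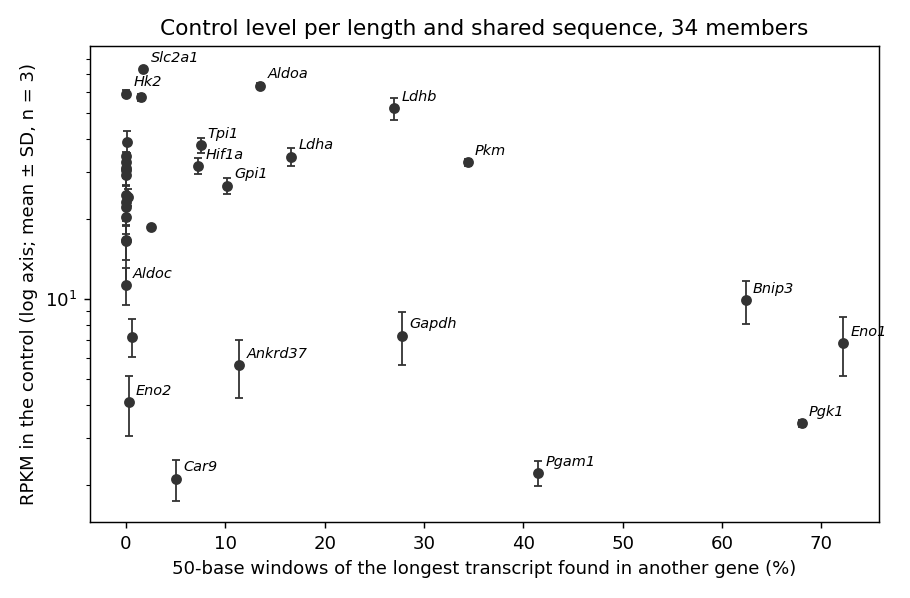
Control level per exon length in RPKM (y axis, log scale, mean and SD of 3 libraries) against the percentage of 50-base windows of the longest transcript that also occur in another gene (x axis), for each of the 34 members. Slc2a1 at 73.3 RPKM is highest and Car9 at 2.12 lowest, and Eno1, Pgk1 and Pgam1, with 41.5 to 72.2% of windows shared, lie below 7 RPKM.

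Lactate handling held the second called member. Lactate dehydrogenase is a tetramer of A chains (Ldha), which favour lactate formation, and B chains (Ldhb). Ldhb measured 90.1, 80.8 and 74.8 CPM in the control, 51.4, 42.7 and 22.0 with Fam60a knockdown and 62.0, 62.8 and 71.5 with Sin3a knockdown. The groups did not overlap, with the Fam60a knockdown lowest and the control highest. In the Fam60a knockdown the log2 fold change was -1.08 ± 0.27 (SE), which missed the threshold (edgeR adjusted p = 0.0711) and passed without Sin3a knockdown replicate 3 (-1.07, adjusted p = 0.024). Under Sin3a knockdown it was -0.33 ± 0.27 (adjusted p = 0.476). The difference between the knockdowns did not pass in any alternative (adjusted p = 0.0652 to 0.382). Ldhb shared 27.0% of its windows with 1 pseudogene.

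Ldha measured 119, 104 and 118 CPM in the control, 107, 93.8 and 114 with Fam60a knockdown and 116, 126 and 171 with Sin3a knockdown, and passed no test. Per length, Ldha made up 37.5 ± 2.27% of lactate dehydrogenase reads in the control, 55.9 ± 11.7% with Fam60a knockdown and 49.0 ± 3.41% with Sin3a knockdown (SD, n = 3). The Ldhb share was 57.0 ± 3.01, 41.6 ± 11.7 and 49.8 ± 2.88% in the same order. By this measure the B chain was the larger share in every control library and in 1 of the 3 Fam60a knockdown libraries. The length used joins all annotated exons, 3310 bases for Ldha and 1570 for Ldhb. The longest transcripts have 1815 and 1304 bases, and before division by length Ldha held more control reads (2239 against 1614). The B chain thus led per joined exon base, and the A chain in reads not divided by length. Shares per longest transcript were not computed. The remainder was Ldhc, the testis form.

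Slc16a3 (ENSMUSG00000025161) encodes MCT4, a monocarboxylate transporter known for lactate export from glycolytic cells. It measured 126, 124 and 104 CPM in the control, 102, 103 and 83.8 with Fam60a knockdown and 72.1, 67.6 and 93.8 with Sin3a knockdown. Both knockdowns lay below every control library and overlapped each other. Slc16a3 fell by 0.61 ± 0.16 on the log2 scale in the Sin3a knockdown (SE, edgeR adjusted p = 0.0455), and by 0.75 ± 0.12 without replicate 3 (adjusted p = 0.00258). This call was close to the threshold: it was lost in 13 of 17 alternatives, the replicate block among them (adjusted p = 0.0644), with adjusted p between 0.00258 and 0.203. The log2 value under Fam60a knockdown was -0.30 ± 0.16 (adjusted p = 0.443). Slc16a1, the MCT1 transporter, measured 158, 148 and 150 CPM in the control, 124, 125 and 134 with Fam60a knockdown and 143, 141 and 119 with Sin3a knockdown. Under the Fam60a hairpin the log2 value of Slc16a1 was -0.25 ± 0.11 (adjusted p = 0.303), and it fell by 0.24 without Sin3a knockdown replicate 3 (adjusted p = 0.0217).

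Pdk1 encodes a kinase that blocks pyruvate dehydrogenase and is a known HIF-1 target. It measured 272, 252 and 242 CPM in the control, 260, 242 and 267 with Fam60a knockdown and 309, 326 and 140 with Sin3a knockdown. Replicates 1 and 2 of the Sin3a knockdown exceeded all control libraries, and replicate 3 was the lowest of all 9. The log2 fold change was 0.02 ± 0.26 with that library (SE, edgeR adjusted p = 0.967) and 0.32 ± 0.068 without it (adjusted p = 0.0108).

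Among the 4 regulators, Epas1 in the Sin3a knockdown had the smallest adjusted p. It measured 179, 153 and 160 CPM in the control, 186, 177 and 198 with Fam60a knockdown and 224, 253 and 180 with Sin3a knockdown. Every Sin3a knockdown library was above every control library, replicate 3 by a narrow margin. The log2 fold change of 0.42 ± 0.14 (SE) did not pass (edgeR adjusted p = 0.0891), and without replicate 3 Epas1 rose by 0.54 ± 0.085 (adjusted p = 0.00272). Hif1a measured 196, 172 and 192 CPM in the control, 179, 167 and 169 with Fam60a knockdown and 198, 194 and 98.3 with Sin3a knockdown. It passed no test, and its log2 interval in the Sin3a knockdown without replicate 3 was -0.091 to 0.23. Of HIF alpha reads per length, taken over Hif1a, Epas1 and Hif3a, Epas1 made up 43.8 ± 1.49% in the control, 49.6 ± 1.82% with Fam60a knockdown and 57.7 ± 6.12% with Sin3a knockdown (SD, n = 3). Hif3a made up 8.8 ± 2.05, 7.17 ± 1.92 and 2.85 ± 1.14% in the same order. Its log2 fold change in the Sin3a knockdown was -1.451 ± 0.395 (SE, edgeR adjusted p = 0.0502). Hif3a passed there with the replicate block (adjusted p = 0.0198) and without replicate 3 (adjusted p = 0.0189).

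The oxygen sensors Egln1 (PHD2) and Egln3 (PHD3), the second itself a HIF target, passed no test with all libraries. Egln1 measured 68.6, 50.9 and 58.3 CPM in the control, 82.2, 73.8 and 86.2 with Fam60a knockdown and 68.6, 56.6 and 150 with Sin3a knockdown. The Fam60a knockdown libraries were above the control libraries, with a log2 fold change of 0.45 ± 0.32 (SE, edgeR adjusted p = 0.639), and Egln1 rose by 0.46 ± 0.12 without Sin3a knockdown replicate 3 (adjusted p = 0.0354). Egln3 measured 60.8, 34.3 and 38.3 CPM in the control, 44.3, 35.0 and 39.1 with Fam60a knockdown and 38.1, 40.1 and 23.6 with Sin3a knockdown, with overlapping groups.

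Of the 7 other hypoxia-induced members, with all libraries 0 passed with Fam60a knockdown and 1 with Sin3a knockdown, beside 2.92% and 10.2% of all genes. Ddit4 (ENSMUSG00000020108), known as REDD1, is a stress-induced inhibitor of mTORC1 signalling that also responds to glucocorticoids, DNA damage and amino acid shortage. It measured 40.6, 34.4 and 46.6 CPM in the control, 57.7, 55.7 and 60.2 with Fam60a knockdown and 64.8, 70.2 and 166 with Sin3a knockdown. The 3 groups did not overlap, and replicate 3 of the Sin3a knockdown was far above the rest. Ddit4 rose by 1.29 ± 0.34 on the log2 scale in the Sin3a knockdown (SE, edgeR adjusted p = 0.042). Without replicate 3 the rise was 0.74 ± 0.13 (adjusted p = 0.00421), so the size depended on that library by more than 1.5 times on the log2 scale and the direction did not. It was called in 10 of 17 alternatives (adjusted p = 0.0031 to 0.158), and it lost the call without any single Fam60a knockdown or control library. In the Fam60a knockdown the log2 fold change was 0.51 ± 0.33 (adjusted p = 0.57), and Ddit4 rose by 0.53 ± 0.12 without Sin3a knockdown replicate 3 (adjusted p = 0.0158). Ddit4 had the highest GC content of the members, 57.9%.

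P4ha1, a collagen prolyl hydroxylase subunit that HIF-1 also induces, measured 83.6, 85.9 and 135 CPM in the control, 138, 130 and 184 with Fam60a knockdown and 155, 144 and 212 with Sin3a knockdown. Replicate 3 was highest in each group, and within each replicate number both knockdowns exceeded the control. Log2 fold changes were 0.57 ± 0.24 and 0.74 ± 0.24 (SE, edgeR adjusted p = 0.281 and 0.0828). With the replicate block P4ha1 rose in both, by 0.58 ± 0.099 and 0.76 ± 0.10 (adjusted p = 0.0257 and 0.00661). The primitive endoderm, an early lineage that lays down collagen-rich basement membrane, is represented by 11 marker genes, whose summed level ordered the libraries within each group as P4ha1 did. The sums were 1457, 1867 and 3389 CPM in the control, 3112, 3107 and 4416 with Fam60a knockdown and 3624, 3528 and 7546 with Sin3a knockdown. With all libraries 0 of these markers passed with Fam60a and 1 with Sin3a knockdown, beside 2.92% and 10.2% of all genes. This was Gata6, which rose by 1.29 ± 0.30 on the log2 scale in the Sin3a knockdown (SE, edgeR adjusted p = 0.029). At an unadjusted p under 0.05 there were 9 in the Sin3a and 3 in the Fam60a knockdown, beside 25.9% and 15.7% of all genes. DESeq2 called 8 and 2, beside 17.4% and 8.18%, and 0 of 11 were at 0. With the replicate block, the fit in which P4ha1 was called, 10 of the 11 markers rose with Sin3a knockdown and 4 with Fam60a knockdown. The shares of all genes called with the block were 15.0% and 6.13%. Without Sin3a knockdown replicate 3, 1 marker rose in each, beside 24.5% and 16.9% of all genes. The part of such cells in the P4ha1 levels was not tested. The 10 trophectoderm markers summed to 113 to 209 CPM in the control, 174 to 251 with Fam60a knockdown and 137, 126 and 420 with Sin3a knockdown, the last in replicate 3. With all libraries 0 of the 9 tested passed with Fam60a or Sin3a knockdown, beside 2.92% and 10.2% of all genes. At an unadjusted p under 0.05 there were 3 and 1, beside 15.7% and 25.9%, and DESeq2 called 3 and 1, beside 8.18% and 17.4%. With the block, 4 of the 9 rose with Fam60a knockdown and 2 with Sin3a knockdown, beside 6.13% and 15.0% of all genes. Without Sin3a knockdown replicate 3 these numbers were 3 and 1, beside 16.9% and 24.5%. The 10 fibroblast markers summed to 22.1 to 93.1 CPM, with 5 fibroblast markers at or under 3 reads per library on average.

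The remaining hypoxia-induced members showed no call in any of the 3 fits. Vegfa, the angiogenic growth factor, measured 95.3 to 109 CPM in the control, 90.5 to 102 with Fam60a knockdown and 97.6, 106 and 227 with Sin3a knockdown. Kdm3a, a histone H3 lysine 9 demethylase, measured 237 to 269, 217 to 241 and 135 to 249 CPM. Bnip3, a mitophagy receptor, measured 22.5 ± 4.14, 19.0 ± 1.61 and 20.9 ± 7.29 CPM in the control, Fam60a knockdown and Sin3a knockdown (SD, n = 3), with 62.4% of its windows shared. Car9, a carbonic anhydrase that is widely used as a hypoxia marker, was the lowest member per length in the control (2.12 RPKM) and measured 4.89 ± 0.85, 4.17 ± 0.39 and 2.69 ± 1.28 CPM. Ankrd37 measured 8.68 ± 2.14, 10.3 ± 1.35 and 15.6 ± 8.63 CPM.

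Other isozymes and transporters of the pathway, had 17 of 26 listed genes tested. In the Fam60a knockdown 1 rose and 2 fell, beside 2.92% of all genes called, and in the Sin3a knockdown 2 rose and 3 fell, beside 10.2%, with median log2 fold changes of 0.09 and -0.004. The genes that rose, Fbp2 and Fbp1, encode fructose-1,6-bisphosphatases, which run the phosphofructokinase step in reverse for glucose synthesis. Fbp2 measured 30.8, 31.1 and 46.9 CPM in the control, 116, 98.7 and 101 with Fam60a knockdown and 109, 104 and 139 with Sin3a knockdown. It rose in both knockdowns, by 1.54 ± 0.20 and 1.69 ± 0.20 on the log2 scale (SE, edgeR adjusted p = 0.0106 and 0.00245). Fbp1 measured 4.86 ± 0.66 CPM in the control, 14.0 ± 5.15 with Fam60a knockdown and 15.6 ± 6.88 with Sin3a knockdown (SD, n = 3). Its rise passed with Sin3a knockdown (edgeR adjusted p = 0.0334) and not with Fam60a knockdown (adjusted p = 0.0925). Without Sin3a knockdown replicate 3 the rise with Fam60a knockdown passed as well (adjusted p = 0.0107). With the replicate block Pfkfb2, a maker and remover of the activator fructose 2,6-bisphosphate, rose in both as well (log2 0.76 and 0.63, adjusted p = 0.0261 and 0.0231). Without Sin3a knockdown replicate 3 there were 6 calls with either knockdown, 4 risen and 2 fallen for Fam60a and 2 risen and 4 fallen for Sin3a. The shares of all genes called in that fit were 16.9% and 24.5%.

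The genes that fell are isozymes typical of other tissues. Pklr, the liver and red cell pyruvate kinase, held 129 reads over the control libraries, 18 over the Fam60a knockdown and 8 over the Sin3a knockdown. Pklr fell in both knockdowns, with log2 fold changes of -2.92 ± 0.55 and -3.50 ± 0.63 (SE, edgeR adjusted p = 0.0298 and 0.0111). Ldhc, the testis lactate dehydrogenase, fell in both knockdowns from 7.96 ± 1.08 CPM to 2.29 ± 0.35 and 1.59 ± 0.74 (SD, n = 3, adjusted p = 0.0282 and 0.00726). Eno3, the muscle enolase, measured 54.9, 53.6 and 45.0 CPM in the control, 66.3, 64.9 and 54.4 with Fam60a knockdown and 20.1, 18.2 and 15.0 with Sin3a knockdown. Eno3 fell in the Sin3a knockdown by 1.51 ± 0.18 (SE, adjusted p = 0.00228), and its log2 difference from the Fam60a knockdown was -1.79 (adjusted p = 0.00632). It took 72.9 ± 5.80% of enolase reads per length in the control and 47.9 ± 12.1% in the Sin3a knockdown (SD, n = 3), where reads of Eno1 are uncertain as above.

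Branches from glycolysis had 20 tested genes and 0 calls in the Fam60a knockdown, beside 2.92% of all genes. At an unadjusted p under 0.05 there were 3, beside 15.7%, and DESeq2 called 0, beside 8.18%. Gpd1 and Gys1 fell in the Sin3a knockdown, beside 10.2% of all genes called. Gpd1, glycerol-3-phosphate dehydrogenase, went from 4.34 ± 1.28 to 0.908 ± 0.27 CPM (SD, n = 3, edgeR adjusted p = 0.00726), from 12 reads in the Sin3a knockdown. Gys1, glycogen synthase, measured 145, 137 and 134 CPM in the control, 126, 105 and 103 with Fam60a knockdown and 92.1, 79.8 and 79.6 with Sin3a knockdown. It fell there by 0.72 ± 0.12 on the log2 scale (SE, adjusted p = 0.00962). Without Sin3a knockdown replicate 3 the branches had 5 calls with Sin3a knockdown (2 risen and 3 fallen) and 3 with Fam60a knockdown (2 risen and 1 fallen). The shares of all genes called there were 24.5% and 16.9%. Of 12 tested transcriptional regulators of glycolysis, 0 passed in the Fam60a knockdown, beside 2.92% of all genes. There were 0 also at an unadjusted p under 0.05 and by DESeq2, beside 15.7% and 8.18%. In the Sin3a knockdown 2 passed, 1 in each direction, beside 10.2% of all genes. Mlxipl, which encodes the glucose-responsive factor ChREBP, fell from 20.3 ± 6.86 to 2.95 ± 1.15 CPM (SD, n = 3, adjusted p = 0.0145). Arrdc4, an arrestin-domain gene that ChREBP and its relative MondoA are known to activate, rose from 117 ± 3.12 to 196 ± 33.4 CPM (SD, n = 3, adjusted p = 0.0123). Without replicate 3 of the Sin3a knockdown, 6 of these 12 regulators were called there, 4 risen and 2 fallen, beside 24.5% of all genes.

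The genes around the HIF system gave no call against the control. These were 13 genes for pyruvate entry into mitochondria, 15 HIF partners and oxygen sensors, and 25 tested further hypoxia-induced genes. With all libraries 0 genes of these lists passed in the Fam60a or the Sin3a knockdown, beside 2.92% and 10.2% of all genes. Their median log2 fold changes were 0.07, 0.004 and -0.02 with Fam60a knockdown and 0.06, -0.05 and -0.09 with Sin3a knockdown, beside -0.02 and -0.01 over all genes. At an unadjusted p under 0.05 there were 1, 0 and 2 genes of these lists in the Fam60a knockdown, beside 15.7% of all genes. With Sin3a knockdown there were 2, 1 and 6, beside 25.9%. DESeq2 called 0, 0 and 1 and then 1, 1 and 5, beside 8.18% and 17.4%. With the replicate block, 4 of the 25 further hypoxia-induced genes were called in the Sin3a knockdown, 1 risen and 3 fallen, beside 15.0% of all genes. The block also gave 2 calls among the HIF partners and 1 for pyruvate entry in the Sin3a knockdown. Without Sin3a knockdown replicate 3, 5 of the hypoxia-induced genes were called in the Sin3a knockdown, 1 risen and 4 fallen, beside 24.5% of all genes.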

How the data were processed

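Stranded total RNA libraries were read as single ends of 50 bases, per the labels' protocols. The deposited values are whole-number counts of reads per Ensembl gene, made with STAR 2.4.0j, Picard and featureCounts (Subread), per the submitters' processing notes. The counted alignments had duplicates removed, per the file headers, which limits the reads of highly expressed genes: 11 members exceeded 0.25 reads per exon base, with the highest at 0.522 (Slc2a1). The genome build, the annotation and the handling of reads with several matches are not given in the sources used here. Symbols (32937 genes), exon lengths and transcripts came from GENCODE M21 on GRCm38, and GC content and shared windows from each gene's longest transcript. Promoter sequences came from RefSeq.

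Genes were kept by filterByExpr, scaled by TMM and fitted in 1 model of 3 groups over 9 libraries with edgeR 4.0.16 (robust quasi-likelihood F-test, R 4.3.3, limma 3.58.1, biological coefficient of variation 0.25). A gene was called at an adjusted p under 0.05 (Benjamini-Hochberg, 14465 genes). The fitting script was tested on simulated counts. Alternatives were RLE scaling, no filter, DESeq2 1.42.0, a replicate block, only the 6 libraries compared, a GC correction with and without the block, a correction for duplicate removal, and leaving out each library. The SE of a log2 fold change was derived from its size and the F statistic of the quasi-likelihood test. The 95% intervals come from this SE and the t distribution, and floors of 3 reads cover counting error only.

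Same-numbered libraries went together: deviations from group means correlated across genes at 0.178 to 0.622 in 9 of 9 same-numbered pairs and at -0.448 to 0.113 between other numbers. No label states what a shared number stands for.

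Every library's value is given for members called in any comparison, the 6 highest per length in the control, and Hif1a, Epas1, Egln1 and Egln3. Of each further list, up to 3 risen and 3 fallen genes of smallest adjusted p are named, among those called against the control with all libraries. Pfkfb2 and Hif3a, which were not called with all libraries, are named outside this rule. The members and lists were chosen with earlier results of these data known. The result of 1 gene of the further hypoxia-induced list is not reported here.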

Additional observations from a re-analysis of the deposited data

Results flagged for a closer look

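For 3 genes outside the 34 members, the effects of the knockdowns on the same control differed by a test of the difference itself. Eno3 was lower in the Sin3a than in the Fam60a knockdown by a log2 difference of -1.785 (edgeR adjusted p = 0.00632), Gpd1 by -2.420 (adjusted p = 0.0157) and Thy1, which is on the fibroblast marker list, by -1.820 (adjusted p = 0.0183). Thy1 measured 24.7 ± 3.42 CPM in the control, 25.1 ± 4.70 with Fam60a knockdown and 6.87 ± 2.44 with Sin3a knockdown (SD, n = 3). For Gpd1 the Sin3a knockdown held 12 reads in all, and the Fam60a knockdown held 97. The 3 differences also passed without Sin3a knockdown replicate 3 (adjusted p = 0.000569, 0.00482 and 0.0031 for Eno3, Gpd1 and Thy1). Among the members themselves, 0 passed this test with all libraries.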

How the results depend on the processing

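The direction of every called member stayed the same under the 17 alternatives, so no call reversed. Values of members that were not called did change sign between alternatives, such as Pfkl in the Sin3a knockdown (log2 -0.09 to 0.63). Each comparison gave 578 member results. In the Sin3a knockdown 548 kept their call or its absence, 22 lost it and 8 gained it; 20 were gained in the Fam60a knockdown and 11 between the knockdowns. Members called in the Fam60a knockdown (0 with all libraries) numbered 2 with DESeq2, 2 with the replicate block, 6 with only the 6 libraries compared, 1 with the GC correction and 3 with that correction and the block. In the Sin3a knockdown (3) they numbered 5 with DESeq2 and 0 with only the 6 libraries compared. Between the knockdowns (0) they numbered 1 with DESeq2 and 4 with the GC correction and the block. Leaving out 1 library gave 0 to 6 called members in each comparison, with 0 in the Sin3a knockdown without T2SC control replicate 1 and 6 in each comparison without Sin3a knockdown replicate 3.

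Over all genes, the Fam60a knockdown had 423 calls, and 1181 with DESeq2, 887 with the replicate block, 1827 with only the 6 libraries, 728 with the GC correction and 1691 with that correction and the block. The Sin3a knockdown had 1475, and 2507 with DESeq2, 739 with only the 6 libraries and 3331 with the GC correction and the block. Between the knockdowns there were 443, and 1332 with DESeq2, 672 with the block, 0 with only the 6 libraries (1760 at an unadjusted p under 0.05), 821 with the GC correction and 1565 with that correction and the block. Leaving out 1 library gave 11 to 2495, 521 to 3606 and 48 to 2166 calls in the 3 comparisons, the highest each time without Sin3a knockdown replicate 3. RLE scaling, no filter and the correction for duplicate removal kept all 3 counts over all genes within 1.5 times. Apart from the changes given here and beside each member, the block changed no other member's call. The cause of these differences was not tested. Depth limits the lowest members, such as Car9 with 3 reads (1.22 CPM) in Sin3a knockdown replicate 3.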
